A study of Mus musculus with 8 samples.

Results

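The Zfp genes described here are the 292 mouse genes whose symbol is Zfp followed by digits alone, among 11315 genes with a deposited RNA level. Zfp488 and Zfp536 match the same pattern and were left out by the rule. Of the 292 members, 285 carried at least 1 of their own sites in the hydroxymethylation tables, with 7690 of 1497075 sites (0.514%) in their promoters, exons or introns. The other 7 members (Zfp65, Zfp85, Zfp141, Zfp300, Zfp638, Zfp738 and Zfp850) had none.

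RNA and DNA came from the same cell pellets of sorted brain cells, taken from C57BL/6 mice on postnatal day 60. The adult oligodendrocyte progenitors (aOPC) were sorted as PDGFRa::GFP+ cells from Pdgfra-H2BEGFP mice, in which the Pdgfra locus drives a nuclear green fluorescent protein. Adult oligodendrocytes (aOL), the myelin-forming cells, were sorted as PLP::GFP+ cells from Plp-EGFP mice, in which a myelin gene promoter drives the fluorescent protein. Each population had 2 RNA-sequencing libraries and 2 libraries of reduced representation hydroxymethylation profiling (RRHP), numbered replicates 2 and 3 (replicates numbered 1 were not analysed here). Population and reporter line cannot be told apart in this design, and p-values cover only the spread between these samples. The tissue label of the aOL RRHP libraries names the PDGFRa reporter while their titles name Plp, and the titles were used. The titles of the aOL RNA libraries call the cells pre-myelinating, whereas their protocol calls them myelinating.

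Most Zfp genes encode C2H2 zinc finger proteins, in which a row of fingers, each folded around a zinc ion, reads DNA sequence, and neighbouring fingers are joined by a short conserved linker. Many of them also carry a KRAB box, which recruits the corepressor Trim28 and, through it, enzymes that lay down repressive histone and DNA methylation, chiefly over retroelements. The whole row of fingers is usually encoded by the last coding exon, and the genes sit in clusters that arose by tandem duplication. Here 163 members held a KRAB box pattern in their annotated protein and 129 did not, 8 held the pattern of a SCAN domain, and the median member had 11 fingers (highest 36, in Zfp142). No finger was found in 6 members. The members lay on 20 chromosomes, with 79 on chromosome 7, 35 on chromosome 17 and 27 on chromosome 13. In 8 runs of at least 8 members no more than 1 Mb apart lay 102 of them.

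RRHP reads 5-hydroxymethylcytosine (5hmC), the oxidised form of 5-methylcytosine, at CCGG. A glucose placed on 5hmC protects the site from the enzyme MspI, so a protected site yields reads, counted separately for each strand. The sequences below are the CCGG sites on which the results turn, with the 20 reference bases on either side (GRCm38), written 5′ to 3′ along the coding strand with the CCGG in capitals. The first 5 show how a CCGG comes to lie in the zinc finger linker: the codons for its threonine and glycine meet as ACC GGN. They are the linker sites with the highest levels.
Zfp180, exon, chr7:24105579-24105622, plus strand: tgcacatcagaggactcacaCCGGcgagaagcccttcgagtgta
Zfp41, exon, chr15:75618593-75618636, plus strand: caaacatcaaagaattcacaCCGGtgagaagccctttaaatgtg
Zfp74, exon, chr7:29934478-29934521, minus strand: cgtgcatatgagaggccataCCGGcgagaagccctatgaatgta
Zfp157, exon, chr5:138456306-138456349, plus strand: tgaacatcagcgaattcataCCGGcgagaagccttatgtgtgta
Zfp28, exon, chr7:6394589-6394632, plus strand: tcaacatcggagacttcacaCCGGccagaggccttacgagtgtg
The next 6 are sites that differed most between the populations, that carried a whole gene's difference or that differed in opposite directions on their strands. The strand named is the one printed, and the called strand was minus at the Zfp568 site and plus at the Zfp109 site.
Zfp82, intron, chr7:30063509-30063552, minus strand: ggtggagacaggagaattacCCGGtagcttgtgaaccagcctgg
Zfp568, intron, chr7:29987229-29987272, plus strand: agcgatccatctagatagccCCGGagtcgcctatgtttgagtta
Zfp566, intron, chr7:30081567-30081610, minus strand: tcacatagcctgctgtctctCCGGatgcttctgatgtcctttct
Zfp566, intron, chr7:30085831-30085874, minus strand: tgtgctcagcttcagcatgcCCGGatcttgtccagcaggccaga
Zfp109, promoter column and intron, chr7:24236773-24236816, minus strand: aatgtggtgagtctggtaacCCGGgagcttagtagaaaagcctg
Zfp341, exon, chr2:154643797-154643840, plus strand: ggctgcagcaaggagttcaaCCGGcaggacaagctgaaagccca

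The sorted populations were first compared with the markers of their cell types. Oligodendrocyte transcripts were high in all 4 RNA libraries: Mag, a myelin membrane protein, stood at 18.50 and 18.27 in aOPC and at 18.39 in both aOL libraries, and the median difference of 12 oligodendrocyte markers was -0.03. At an unadjusted p under 0.05, 4 of them lay lower in aOL and 0 higher, where 12% and 12.1% of all genes did, with none called: Opalin (-0.98), Cldn11 (-0.76), Mog (-0.65) and Aspa (-0.53). Without that p, 6 lay lower and 5 higher, among the latter Ermn (0.57) and Cnp (0.24), so the list did not separate the populations in 1 direction. Of 11 OPC markers listed, 6 lay lower and 5 higher in aOL (median difference -0.40, none called), with 2 lower (Neu4 and Vcan) and 0 higher at an unadjusted p under 0.05. The Neu4, Vcan and Pdgfra levels were uneven between the aOPC libraries. Neu4 stood at 9.90 and 7.07 (deposited log2 values) in aOPC replicates 2 and 3 and at 3.03 and 3.61 in aOL, and Pdgfra at 7.54 and 5.47 against 4.98 and 1.63. Olig1 (16.86 and 16.77 against 16.38 and 16.45) lay lower in aOL without overlap, and Sox10 (15.39 and 15.23 against 15.62 and 15.69) higher. In both of these the aOPC libraries were closer. The log2 of the summed level was 17.54 and 17.28 in aOPC against 17.25 and 17.33 in aOL for the OPC list, so that the groups overlapped. Of other cell types, the median difference was -0.60 over 8 astrocyte markers, -0.53 over 10 of 11 microglial markers and -0.57 over the 4 tested neuronal markers, with Rbfox3 and Slc17a7 not listed. The summed levels lay between 13.41 and 13.73 for astrocytes, 11.70 and 12.59 for microglia and 11.68 and 12.46 for neurons over the 4 libraries. The endothelial list had 2 of 7 markers listed: Cldn5 stood at 0.33 and 1.80 in aOPC against 5.92 and 7.13 in aOL, and Kdr at 9.07 and 9.36 against 9.73 and 10.07. The part of these cells in the Zfp results was not tested. In such bulk samples, fewer cells of a type and less RNA per cell cannot be told apart.

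The RRHP libraries held 7113237 and 17121440 reads in aOPC against 15923775 and 27057859 in aOL, so aOPC replicate 2 was the shallowest. Zfp sites took 0.549% and 0.570% of the reads in aOPC and 0.573% and 0.553% in aOL. The means were 0.560% ± 0.0147 and 0.563% ± 0.0140 (SD, n = 2), a ratio of 1.01, and the groups overlapped (exact two-sided permutation test, p = 0.667, where 2 libraries against 2 allow no p below 0.333).

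Of the regions of the Zfp genes compared per CCGG, the stretch that encodes the fingers had the highest mean RRHP level. In 223 members with at least 3 fingers inside the last coding exon, the finger array held 1006 CCGG strand positions. Their mean level was 0.996 and 1.002 CPM (reads per library total, scaled to a common total) in aOPC against 0.959 and 0.975 CPM in aOL. In the same exon before the array, 236 positions stood at 0.511 and 0.582 in aOPC against 0.607 and 0.571 in aOL. The array was thus 1.73 times higher than the start of its own exon, and higher in 4 of 4 libraries (exact two-sided permutation test over the libraries, p = 0.125, the smallest that 4 libraries allow). Last coding exons of other genes, where at least 1000 bases long, averaged 0.595 ± 0.0102 (SD over 4 libraries, 713 genes), against 0.983 ± 0.0197 in the arrays. That ratio was 1.65, and between 1.59 and 1.72 in single libraries (same exact permutation test, p = 0.125).

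Around the transcription start, in contrast, the members stood at the level of other genes. Within 500 bases of the start, the mean was 0.207 and 0.0841 CPM in aOPC against 0.0781 and 0.103 in aOL over the members, and 0.207, 0.0854, 0.0782 and 0.103 over 10960 other genes (ratio 0.997, exact p = 0.25). aOPC replicate 2 was high at starts in both sets of genes, and promoter sites of all genes took 8.55% of its reads against 4.87% to 5.52% in the other libraries. Of the Zfp sites, 31.4% were annotated to a CpG island, against 11.7% of all sites. Per site listed in the tables, the members' mean level was 0.950 in exons (all genes 0.658), 0.721 in introns (all genes 0.776) and 0.203 in promoters (all genes 0.287).

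**Figure D1:**
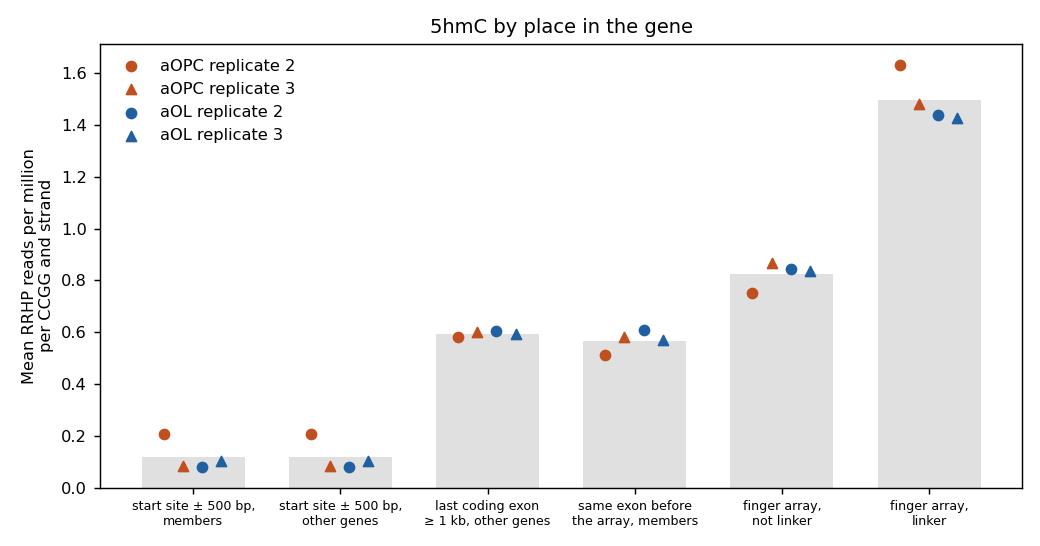
Mean RRHP level in CPM per CCGG and strand (y axis, from 0) by place in the gene (x axis), with 1 point for each of the 4 libraries and grey bars for their mean. Linker positions within the finger array lie between 1.43 and 1.63 and its other positions between 0.751 and 0.867, while positions around the start lie between 0.0781 and 0.207.

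Within the array, the linker stood out from the fingers it joins. Of 1439 linkers in the members' proteins, 165 were encoded with a CCGG, in 92 members. Here the arrays of all members with at least 3 fingers were taken over all their coding exons, which gave 1420 strand positions in 196 members, more than in the last exon alone. Linker positions (320, or 22.5% of these) had a mean of 1.63 and 1.48 CPM in aOPC against 1.44 and 1.43 in aOL. The 1100 other array positions stood at 0.751 and 0.867 in aOPC against 0.843 and 0.838 in aOL. The ratio was 1.81, and the linkers were higher in 4 of 4 libraries (exact two-sided permutation test over the libraries, p = 0.125). The medians lay further down, at 0.524 and 0.207, so a share of strongly read sites raised both means. Positions inside a finger averaged 0.701, and coding positions outside the array 0.500.

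This order did not hold in every gene. Of 57 members with both kinds of position, the linker mean was the higher in 38. Because linkers are alike between genes, the 50 reference bases from each site were searched for copies: 578 member sites (7.52%) had bases that occurred more than once, and without these the means were 1.52 and 0.814. The top sites were read in every library. The Zfp180 site shown above had 144 and 267 reads in aOPC against 219 and 567 in aOL. The Zfp41 site had 112, 232, 206 and 285 reads in the same order of libraries, and the Zfp74 site 155, 172, 118 and 254. None of these 3 differed between the populations at an adjusted p under 0.05 (edgeR).

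RNA of the Zfp genes was next compared between aOL and aOPC. No member was called in either direction by limma (unadjusted p under 0.01 with adjusted p under 0.05), where 0.00898% of 11133 genes tested were called higher and 0.0719% lower. All 292 members passed the filter on low values, and the smallest adjusted p among them was 0.111. At an unadjusted p under 0.05, 49 members lay higher in aOL and 4 lower, or 16.8% and 1.37%, where 12.1% and 12% of all genes tested did. The 2 aOL libraries lay above both aOPC libraries in 138 members and below them in 27, with 31.9% and 29.9% of all genes doing so. The median difference of the members was 0.31 on the log2 scale, beside 0.02 over all genes, with 212 members above 0 and 80 below. Their median level was 9.58 and 9.62 in aOPC against 9.84 and 9.78 in aOL. Without aOPC replicate 2, 71 members were called higher and 14 lower (18.4% and 17.9% of all genes), and without aOPC replicate 3, 59 and 7 (12.03% and 9.28%). In these fits the lone aOPC library was assumed to vary like the aOL libraries. Leaving out either aOL library instead left fewer members at an unadjusted p under 0.05 in both directions, with a median difference of 0.30.

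Transcript length moved with these differences. Over all genes the median difference between aOL and aOPC rose from -0.73 in the decile of shortest transcripts to 0.45 in the ninth decile (Spearman's rho 0.51 across 11091 genes, which share their libraries; 0.31 across members). The same gradient separated the aOPC libraries from each other, at 0.48 for the shortest and -0.29 for the longest transcripts (replicate 3 minus replicate 2), against 0.07 and -0.10 between the aOL libraries. Members had a median exonic length of 3696 bases (all genes 3456). Their median lay above that of other genes in 8 of 10 length deciles. After centring within deciles, the members' median difference was 0.21, beside 0.02 over all genes, and 27 lay higher and 5 lower at an unadjusted p under 0.05, or 9.25% and 1.71%, where 7.30% and 9.09% of all genes did. What length reflects here was not tested.

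**Figure D2:**
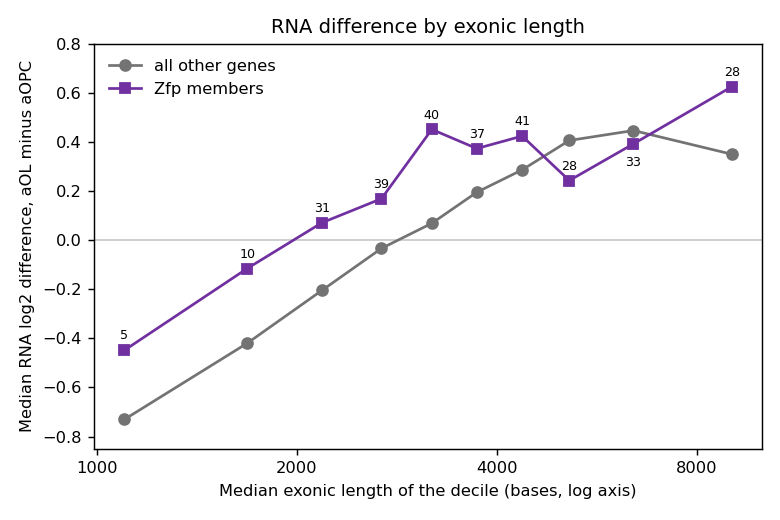
Median RNA difference, aOL minus aOPC in log2 units (y axis), by decile of exonic length (x axis, bases, log scale) for Zfp members and all other genes, with the number of members beside each point. Both lines lie below 0 for the shortest transcripts and above 0 from the fifth decile on, without rising at every step, and the members' line is the upper one in 8 of 10 deciles.

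Per kilobase of transcript, Zfp genes were mostly low. The median member stood at 7.73 (log2 per kilobase, mean of 4 libraries), against 8.82 for all genes, and 63 of 292 members lay above the latter. Members with a KRAB box had a median level of 7.27, and the others 8.24. The highest were Zfp706 (12.53), Zfp637 (11.37), Zfp771 (11.12), Zfp869 (11.10) and Zfp365 (10.87), and the lowest was Zfp473 (2.45). Exon reads of near-identical Zfp copies may have been split or dropped in counting, so levels within clusters are uncertain.

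In the classes of protein, the members with a KRAB box had a median difference of 0.30, with 25 higher (15.3%) and 0 lower at an unadjusted p under 0.05. Those without one had 0.32, with 24 higher (18.6%) and 4 lower (3.10%). Both are to be read against the 12.1% and 12% of all genes, as are the counts by role given later. By number of fingers, the medians were 0.05 for 0 to 2 fingers, 0.21 for 3 to 9, 0.44 for 10 to 14 and 0.41 for 15 or more. None of these classes held a called gene.

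The members with the largest differences among those at an unadjusted p under 0.05 whose groups did not overlap were followed by library. The largest difference of any member, in Zfp791 (2.51 and 5.54 against 6.31 and 7.19, 2.73), missed that p. Among those higher in aOL, Zfp960, a KRAB zinc finger gene, stood at 5.01 and 5.35 in aOPC against 7.28 and 6.78 in aOL (1.85 ± 0.28, difference and standard error; limma adjusted p = 0.122). Zfp39, another KRAB member, had 7.90 and 7.96 against 9.56 and 9.36 (1.53 ± 0.20, limma adjusted p = 0.111). Both had replicates closer to each other than to the other population. Zfp174, a SCAN domain member, stood at 7.50 and 6.92 against 9.02 and 8.78. Zfp526 stood at 6.36 and 7.48 against 8.48 and 8.52, and Zfp516, a transcription factor of brown fat, at 8.34 and 7.86 against 9.88 and 9.41. In Zfp526 the aOPC libraries lay over 1 unit apart while the aOL libraries were nearly equal. Zfp382 (8.39 and 7.85 against 9.51 and 9.45) and Zfp146 (8.50 and 8.52 against 9.87 and 9.74) lie in the same run on chromosome 7. Zfp658, with 21 fingers, stood at 8.28 and 8.13 against 9.45 and 9.52.

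Lower in aOL by the same criteria, the unadjusted p included, were 4 members, out of 27 without overlap. Zfp14, at 12.09 and 10.40 against 9.83 and 9.62, differed by as much (-1.52) but missed that p, with its aOPC libraries far apart. Zfp277 had 10.77 and 11.12 in aOPC against 9.43 and 9.41 in aOL (-1.53 ± 0.22, limma adjusted p = 0.122). Zfp326, which encodes a subunit of a complex linking transcription elongation to splicing, had 10.26 and 10.98 against 9.43 and 9.72 (-1.04 ± 0.32, limma adjusted p = 0.181). Zfp428 stood at 7.87 and 8.47 against 7.23 and 7.20, and Zfp637 at 12.06 and 12.51 against 11.47 and 11.51. None of these 4 carried the KRAB pattern, whereas Zfp14 did.

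**Figure D3:**
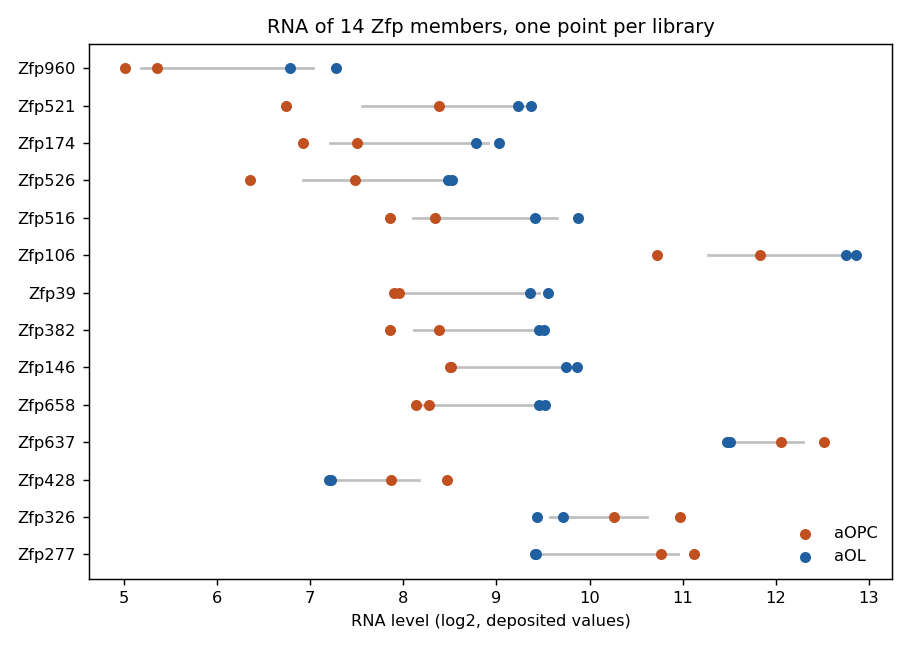
Deposited RNA level (x axis, log2) of the 14 members chosen by their difference (y axis), with 1 point per library, colours for aOPC and aOL and grey lines between the population means. The aOPC points of Zfp521, Zfp526 and Zfp106 lie over 1 unit apart, and in all 14 genes the populations do not overlap.

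Members with known roles were then read by role. Zfp191 (also named Zfp24), which is needed for myelination of the central nervous system, stood at 12.47 and 13.03 in aOPC against 12.98 and 12.88 in aOL, with overlapping groups. Zfp365, which encodes a partner of Disc1, stood at 13.08 and 12.17 against 13.35 and 13.24. Of 8 members tied to neural development, 2 lay higher at an unadjusted p under 0.05 and the median difference was 0.88. Zfp521, which with Zfp423 binds the Ebf factors, stood at 8.38 and 6.74 against 9.37 and 9.23 (1.74 ± 0.60, limma adjusted p = 0.196), and Zfp507 at 9.57 and 9.74 against 10.24 and 10.66. Zfp462 differed little, at 9.66 and 9.64 against 9.66 and 9.60.

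Of 9 members in general transcription, chromatin and pluripotency, 3 lay higher at an unadjusted p under 0.05 (12.1% of all genes did). Zfp143, an activator of snRNA and many protein-coding promoters, stood at 9.64 and 9.62 against 10.16 and 10.12. Zfp91 stood at 11.09 and 11.07 against 11.65 and 11.64, and Zfp664 at 12.49 and 12.61 against 13.17 and 13.09. The pluripotency factor Zfp281 did not separate the populations (13.19 and 12.89 against 13.01 and 13.02).

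Among 6 members that guard imprints or silence retroelements, 1 lay higher at an unadjusted p under 0.05 and 0 lower. This was Zfp568, a repressor of a placental Igf2 transcript, at 8.44 and 9.13 against 9.91 and 9.95. Zfp57, which keeps methylation at imprinted regions, stood at 7.09 and 6.50 against 6.85 and 6.70, and Zfp809, which silences proviruses, at 9.95 and 9.13 against 9.95 and 9.92. In both of these the populations overlapped. Of 7 RNA-binding, splicing or mitosis members, 1 lay higher and 1 lower at that p: Zfp106 (11.83 and 10.72 against 12.86 and 12.76) and Zfp326. Zfp36, which marks mRNAs for decay and is an early response gene, stood at 12.86 and 10.22 against 10.03 and 10.01. Most of its difference was set by aOPC replicate 2.

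The KRAB box works through partners that are no Zfp genes, of which 28 of 32 were listed. Their median difference was 0.27, with 5 higher (17.9%) and 1 lower (3.57%) at an unadjusted p under 0.05, where 12.1% and 12% of all genes were, and none called. Trim28 itself stood at 12.41 and 12.12 in aOPC against 12.43 and 12.58 in aOL. Cbx5, the heterochromatin protein HP1-alpha, stood at 11.76 and 12.15 against 12.99 and 12.89, and the histone methyltransferase Setdb1 at 10.97 and 10.73 against 11.48 and 11.60. Its stabiliser Atf7ip stood at 11.72 and 10.87 against 12.41 and 12.51, and the NuRD subunit Mta1 at 8.06 and 8.44 against 9.08 and 9.05. Of the HUSH complex, Pphln1 stood at 11.66 and 11.55 against 12.12 and 12.13, while Mphosph8 lay the other way, at 10.63 and 10.93 against 9.98 and 10.22.

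Single CpG sites were compared with edgeR on the 443062 sites that reached 10 reads in 2 or more libraries, of which 2226 were Zfp sites. At an adjusted p under 0.05, 44 Zfp sites were higher and 30 lower in aOL, or 1.98% and 1.35% of those tested, beside 1.21% and 1.08% of all sites. In both directions together these were 3.32% and 2.29%. Before adjustment, 147 and 106 had a p under 0.05, beside 5.45% and 4.31% of all sites. The called sites lay at 70 CCGG in 42 members, with 45 in introns, 26 in exons and 3 in promoters, and 1 of them had 50 bases that occur more than once. Zfp423 had 7 called of 128 tested, Zfp566 7 of 16 and Zfp839 5 of 12. Of members described nowhere else by site, Zfp710 had 3 of 59, Zfp598 2 of 21 and Zfp933 2 of 8. Zfp395, Zfp438, Zfp455, Zfp691, Zfp791, Zfp938 and Zfp961 each had 1 site called higher, and Zfp651 and Zfp709 each had 1 called lower. Without aOPC replicate 3, 79 sites were called higher and 86 lower (2.73% and 4.02% of all sites). Without aOPC replicate 2 the lower calls numbered 4 (0.211%), and without aOL replicates 2 and 3 in turn the higher calls numbered 4 and 3 (0.0779% and 0.0729%). These drops follow from the filter, since a site read in 1 population only cannot reach 10 reads in 2 libraries once a library of that population is left out.

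Most of these calls contrasted reads with almost no reads. Of the 74 called sites, 18 had 0 reads in both aOPC libraries and 17 had 0 in both aOL libraries, and 55 had at most 3 reads in total in the lower population. Among 935 Zfp sites that had 10 or more reads in all 4 libraries, none was called by edgeR (smallest adjusted p 0.087; 41 higher and 40 lower at an unadjusted p under 0.05) beside 490 called of 171055 such sites genome-wide. At 329 CCGG both strands were tested, and both were called at 4, with 1 of them in opposite directions. That site is the second Zfp566 intron sequence above: its plus strand had 16 and 41 reads in aOPC against 0 and 0 in aOL, and its minus strand 1 and 6 against 33 and 49.

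Among the 8 runs, called sites were concentrated in 1 run of 15 members on chromosome 7, from 29768552 to 30169775 (0.401 Mb, GRCm38). There 107 Zfp sites were tested, and 10 were called higher and 15 lower in aOL, which is 23.4%. Of those 25, 16 had 0 reads in both libraries of 1 population. Called sites lay in 12 of the 15 members: Zfp14, Zfp27, Zfp30, Zfp74, Zfp82, Zfp84, Zfp146, Zfp382, Zfp383, Zfp420, Zfp566 and Zfp568. Outside the run 34 and 15 of 2119 Zfp sites were called, or 2.31%, which is close to the 2.29% of all sites. The share was not confined to sites annotated to Zfp genes, since 34 of all 135 sites tested in the stretch were called (25.2%). The run was singled out after its values were seen, and population and reporter line cannot be told apart there either. The labels give C57BL/6 for all mice, but the genotype of the lines at these CCGG was not read, so whether every CCGG with 0 reads on both strands is present in both lines was not tested. Some strands with few or no reads in aOL had reads on the other strand of the same CCGG, and others did not. A Zfp383 site had 0 and 1 aOL reads on the minus strand and 91 and 122 on the plus strand. At a Zfp566 exon CCGG both strands had 0 and 0 reads in aOL. In aOPC they had 13 and 41 (plus) and 13 and 58 (minus).

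**Figure D4:**
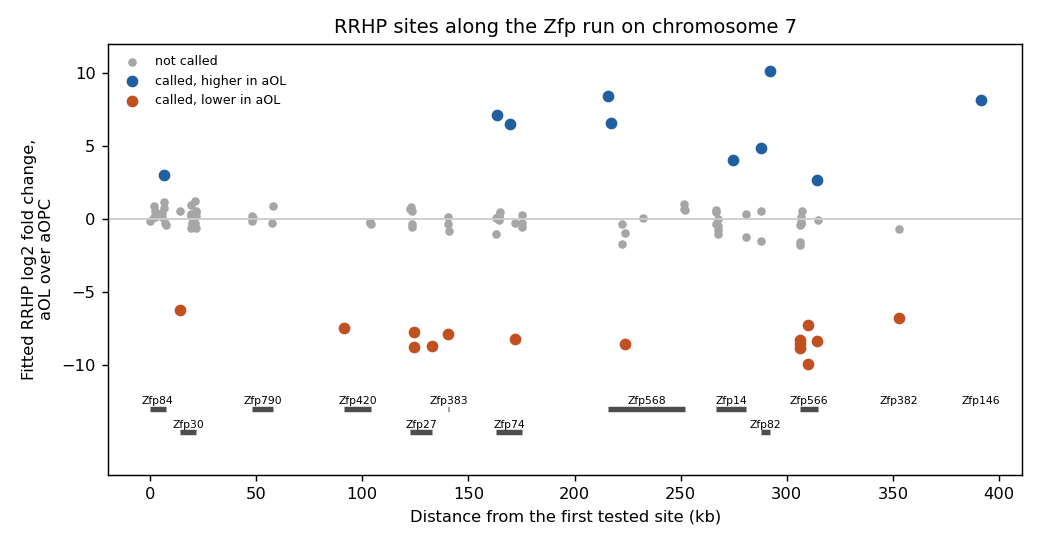
Fitted RRHP log2 fold change of aOL over aOPC (y axis) for the 107 tested Zfp sites of the chromosome 7 run, by distance from the first site (x axis, kb), with called sites coloured by direction and bars below for the span of each member's tested sites. The 10 higher and 15 lower called sites are spread along the run among sites near 0.

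The site with the largest increase was the Zfp82 intron site shown above, with 0 and 0 reads in aOPC against 146 and 210 in aOL, at least 25.2-fold higher against a floor of 3 reads per library (such floors cover counting error only). The Zfp568 intron site had 0 and 0 against 40 and 72 (at least 7.72-fold), and the Zfp341 exon site 0 and 0 against 36 and 66 (at least 7.02-fold). A Zfp507 exon site had 0 and 0 against 38 and 58, and a Zfp146 exon site 0 and 0 against 51 and 37. In the other direction, the first Zfp566 intron site above fell from 38 and 136 reads in aOPC to 0 and 0 in aOL, at least 47.9-fold. A Zfp384 intron site had 16 and 71 against 0 and 0, and a Zfp566 exon site 17 and 68 against 0 and 0. In Zfp27, an exon site had 27 and 41 and an intron site 11 and 67 in aOPC, both against 0 and 0. Of these 10 sites, 7 lay in the chromosome 7 run.

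Summed over gene bodies, 255 members were tested among 18488 genes, and 5 were called. They were 2 higher and 3 lower in aOL, beside 0.162% and 0.687% of all gene bodies. Of the called members, Zfp82, Zfp382 and Zfp566 lie in the chromosome 7 run described above. At an unadjusted p under 0.05, 12 and 13 members lay higher and lower, beside 2.82% and 4.48% of all. The median log2 fold change of the members was 0.01. Without aOPC replicate 3, 33 members were called higher and 29 lower (10.3% and 12.3% of all gene bodies), and without aOPC replicate 2, 5 and 6 (1.27% and 2.001%).

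Among the called gene bodies, the result mostly followed few sites. Zfp382 had 96 and 226 reads in aOPC against 37 and 72 in aOL over 15 sites (log2 fold change -2.42, edgeR adjusted p = 0.000914). Most of the drop came from 1 intron site, with 56 and 138 against 0 and 3 reads. Zfp566 had 297 and 843 against 325 and 507 (-1.24, edgeR adjusted p = 0.0022). Without its 5 sites at 0 in both aOL libraries the sums were 200 and 499 against 325 and 507, and the call was lost (-0.56, edgeR adjusted p = 0.233). Zfp128 had 18 and 73 reads against 2 and 2 over 3 sites (edgeR adjusted p = 0.00939).

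Zfp82 had 53 and 127 reads in aOPC against 258 and 386 in aOL (1.02, edgeR adjusted p = 0.0348). Its direction turned without the intron site shown above, at 112 and 176 reads in aOL (-0.15, edgeR adjusted p = 0.886). Zfp109 had 48 and 145 against 299 and 399 (1.09, edgeR adjusted p = 0.0395), and without its called site 48 and 141 against 171 and 224. When aOL replicate 2 was left out, neither Zfp82 nor Zfp109 was called (0.94 for each). Without aOL replicate 3, Zfp82 (1.11) and Zfp128 (-4.69) were not called. The members with the most gene body reads were Zfp704, Zfp423, Zfp462, Zfp827 and Zfp532. Zfp704 had 1515 and 4717 reads in aOPC against 4372 and 6740 in aOL (0.09, edgeR adjusted p = 0.894). Among members with at least 10 sites, reads per site were highest in Zfp74, at 181 over 16 sites and 4 libraries, followed by Zfp772, Zfp251, Zfp180 and Zfp608. Zfp868, Zfp84 and Zfp512 followed by p among the higher gene bodies, and Zfp27 and Zfp383 among the lower ones. None of these was called (edgeR adjusted p from 0.150 to 0.351).

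In promoters, as the authors' column defines them, 209 members were tested among 14579 genes, and Zfp109, a KRAB member, was the only one called. It was higher in aOL, beside 0.418% of all promoters called higher and 0.35% called lower. At an unadjusted p under 0.05, 8 members lay higher and 7 lower, beside 4.18% and 1.79% of all promoters. Zfp109 had 28 and 35 promoter reads in aOPC against 151 and 213 in aOL (a log2 fold change of 2.12, edgeR adjusted p = 0.0198). Next came Zfp329, with 10 and 13 against 50 and 60 reads (edgeR adjusted p = 0.055), while the Zfp82 promoter lay the other way from its gene body, at 17 and 13 against 1 and 8 (edgeR adjusted p = 0.153). Zfp386, Zfp948 and Zfp711 followed among the higher promoters, and Zfp949, Zfp30, Zfp951 and Zfp27 among the lower ones, at adjusted p values from 0.376 to 0.726 (edgeR).

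The whole difference lay at the Zfp109 site printed above, whose CCGG is at chr7:24236793-24236796. It had 0 and 4 reads in aOPC against 128 and 175 in aOL, and sits 802 bases downstream of the start in RefSeq's promoter table, in an intron (the annotated gene extends further upstream, to 24252339). Without it the promoter had 28 and 31 reads against 23 and 38. The 300 bases around the start, from RefSeq (GRCm38, 250 before to 50 after, minus strand), are shown because their own 4 CCGG, in capitals, were almost unread, with 0 to 6 reads per strand and library.
Zfp109 promoter, chr7:24237549-24237848: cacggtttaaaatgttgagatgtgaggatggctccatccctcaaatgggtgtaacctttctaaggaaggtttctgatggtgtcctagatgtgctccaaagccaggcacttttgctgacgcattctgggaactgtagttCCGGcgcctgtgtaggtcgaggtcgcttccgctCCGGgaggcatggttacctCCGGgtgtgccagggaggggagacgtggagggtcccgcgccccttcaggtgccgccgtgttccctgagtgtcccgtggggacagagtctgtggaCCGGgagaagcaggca
Leaving out either aOL replicate ended the promoter call, at 1.82 without replicate 2 and 2.41 without replicate 3. It was also lost with library totals in place of TMM (1.57, edgeR adjusted p = 0.194) and with replicate number as a block (2.10, edgeR adjusted p = 0.41). Without aOPC replicate 3, 12 promoters were called higher and 4 lower (9.68% and 1.277% of all), and without aOPC replicate 2, 2 and 1 (0.769% and 0.682%). RNA of Zfp109 stood at 7.90 and 8.53 in aOPC against 8.94 and 8.65 in aOL (0.58 ± 0.30, limma adjusted p = 0.313).

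Finally, RNA and gene body differences were set side by side. Across 255 members with both, Spearman's rho was 0.07 and Pearson's r was -0.02, beside a rho of 0.14 over 10388 genes. Genes share their libraries and are not independent, so these are descriptions. Of 48 members with an RNA difference at an unadjusted p under 0.05 and a gene body test, 26 had both differences of the same sign (54.2%, beside 61.1% of 2474 genes). Both measures passed that threshold in 7 members (2.75%, beside 2.19% of all genes with both tests): Zfp74, Zfp84, Zfp277, Zfp382, Zfp429, Zfp592 and Zfp658. Zfp277 was lower in aOL in both, with a gene body level of 48.2 ± 1.96 CPM (SD, n = 2) in aOPC against 38.2 ± 1.32 in aOL. In Zfp74, Zfp382 and Zfp658 the measures had opposite signs, with more RNA and fewer RRHP reads in aOL: their gene bodies stood at 52.4 ± 6.29 against 38.8 ± 0.914, at 13.4 ± 0.0422 against 2.49 ± 0.245 and at 8.56 ± 1.43 against 4.47 ± 0.478. Zfp84, Zfp429 and Zfp592 had more of both in aOL. Single called intron sites held part of the lower gene body sums. Their reads were 45 and 105 in aOPC against 0 and 1 in aOL in Zfp277, and 55 and 154 against 0 and 1 in Zfp74. In Zfp658 the site had 44 and 129 against 49 and 62 (log2 fold change -1.48), and the Zfp382 site is given above. Zfp74, Zfp84 and Zfp592 also had 2, 1 and 2 sites called higher.

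**Figure D5:**
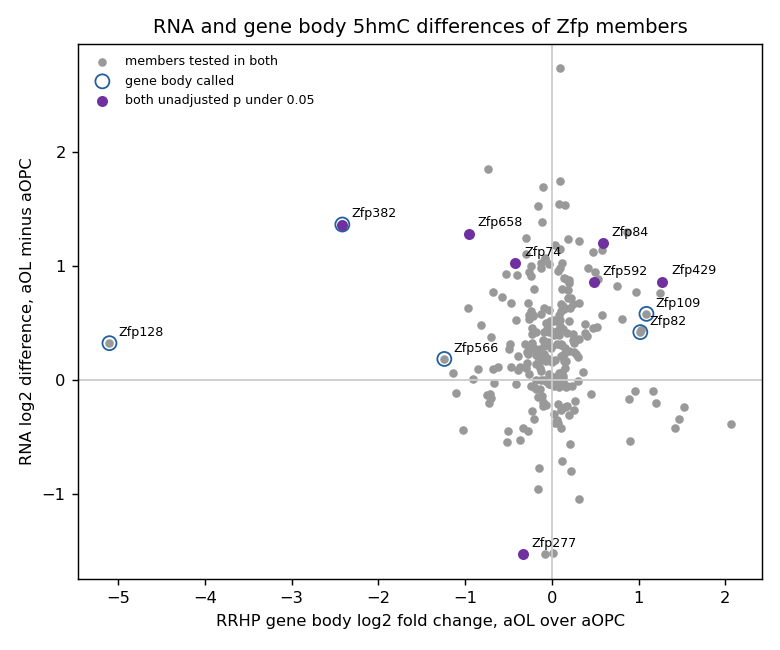
RNA difference (y axis, log2, aOL minus aOPC) against RRHP gene body log2 fold change (x axis) for 255 members, with the 5 called gene bodies ringed and the 7 members at an unadjusted p under 0.05 in both measures coloured. The points form a cloud without a slope (Spearman's rho 0.07).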

How the data were processed

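For sorted aOPC and aOL, 2 RNA-sequencing and 2 RRHP libraries each were analysed. For RNA, the authors deposited 1 log2 expression value for each gene symbol. The study's methods state that reads were aligned to mm10 with BWA, exon reads were counted with featureCounts and DESeq2 (version 1.2.5 in the submitters' processing notes) was used for normalisation. The log2 values share nearly the same quantiles across the 4 libraries and carry no counts, so the depth behind a gene is unknown and changes shared by most genes are removed. For RRHP, the authors deposited unnormalised read counts for each CpG site and strand, aligned to mm10 (aligner and duplicate handling not given in the sources used here), with promoter, exon, intron and CpG island columns. Same-numbered RRHP tables of the populations list the same sites, and an unlisted site was counted as 0. All sites on the assembled chromosomes lay at a CCGG of GRCm38 (100.0%).

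RNA was tested with limma 3.58.1 on genes that reached a log2 value of 5 in 2 or more libraries. For RRHP counts, edgeR 4.0.16 (quasi-likelihood test, TMM on library totals) was used for sites that reached 10 reads in 2 or more libraries and for sums over gene bodies (exon or intron) and promoters after filterByExpr, with Benjamini-Hochberg adjustment over all features and population as the only term. DESeq2 1.42.0 was an alternative for sums, in R 4.3.3. The steps were tested on simulated data. Levels in CPM were counts over library totals (for gene bodies, TMM-scaled). Protein patterns (C2H2 fingers, KRAB, SCAN, and the linker as threonine, glycine, glutamate or glutamine, lysine or arginine, proline) were searched in GENCODE vM21 translations, and coordinates were RefSeq's on GRCm38, matched by symbol for all 292 members. A promoter was in the sequence table for 241 members.

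Members, lists and comparisons were chosen with earlier results of these data known. Text names members called in any test, the 10 with the largest RNA difference in each direction at an unadjusted p under 0.05 without overlap, the 5 extreme sites in each direction, the 5 gene bodies and promoters with the smallest p in each direction, the 5 with the most gene body counts in total and, from 10 sites up, per site, and members of the role lists. The length and start-site comparisons and the finger array were added after the files were read. Same-numbered libraries of the populations come from different reporter lines, and their deviations correlated at -0.07 in RNA, -0.44 in gene bodies and -0.48 in promoters, so replicate number was not in the main model.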

Additional observations from a re-analysis of the deposited data

How the results depend on the processing

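With 2 libraries per population the counts of calls varied when single libraries were left out, and for sites the low ends below follow from the filter, which sites read in 1 population only cannot pass with a library of that population gone. Leaving out each library in turn gave 0 to 71 RNA calls higher in aOL and 0 to 14 lower, 10 to 120 higher and 1 to 39 lower at an unadjusted p under 0.05, and a median difference of 0.28 to 0.34. It gave 0 to 33 gene bodies higher and 2 to 29 lower, 0 to 12 promoters higher and 0 to 4 lower, 3 to 79 sites higher and 4 to 86 lower, and a ratio of shares of 0.987 to 1.02. The members' RNA median stayed above 0 in every setting tried. Centring within length deciles (chosen after seeing the data) left 27 higher at an unadjusted p under 0.05 and a median of 0.21. With sites of at least 3 reads in every library, 0 gene bodies were called higher and 0 lower and 0 promoters, Zfp82 turned to -0.21 and the Zfp109 promoter to -0.38. Without sites read in 1 population only (chosen after seeing the data), 0 gene bodies were called higher and 2 lower, and Zfp82 turned to -0.15. Zfp109 has no such site and stayed at 1.09, with an edgeR adjusted p of 0.0712. A minimum of 10 reads in all 4 libraries gave 0 calls higher and 0 lower, and 5 reads in 2 libraries gave 50 lower. Promoters numbered 0 higher with library totals alone, and 2 higher and 1 lower with no filter on low sums. The replicate block ended the Zfp109 promoter call (0 promoters called, edgeR adjusted p = 0.41), gave 40 higher and 5 lower in RNA at an unadjusted p under 0.05, and otherwise kept counts within 1.5 times (gene bodies 2 and 3, sites 59 and 35). With the aOL numbers exchanged (chosen after seeing the data), 7 and 8 gene bodies, 3 and 1 promoters and 57 and 41 sites were called. The cause of these changes was not tested. Over all alternatives, 78 counts and medians stayed within their limits and 47 moved. The shallowest RRHP library was aOPC replicate 2, and how far its depth limits what can be seen at single sites was not tested.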

Other observations

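Zfp symbols with digits alone that occur in the site tables but have no listed RNA level numbered 41. Their sites held 0.0629% and 0.0685% of the RRHP reads in aOPC and 0.0694% and 0.0666% in aOL, and the populations overlapped (exact two-sided permutation test, p = 0.667, where the smallest possible is 0.333).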
